A study of Mus musculus with 12 samples.

Results

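Basal cells of the mouse prostate that carried the surface protein LY6D were compared with basal cells that did not. The comparison rests on 4 of the 12 arrays of the study, namely the LY6D+ basal samples of mice 3 and 5 and the LY6D- basal samples of the same mice, chosen by their titles and paired by mouse. All animals were wild-type, hormone-naïve males, and the labels used here give neither strain nor age. Cells of both groups lacked the lineage markers CD45, CD31 and Ter119, had intermediate Sca1 and were positive for CD49f, so that the LY6D gate alone separates them. The other 8 arrays came from a Sca1-high, CD49f-positive gate (mice 1 and 5) and a luminal gate with low Sca1 and low CD49f (mice 4 and 5), each again divided into LY6D+ and LY6D- cells. With 2 arrays a group and 2 mice in the basal gate, the number of arrays limits the precision of every value below.

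Basal cells form the outer layer of the prostate gland, next to the basement membrane. They carry keratins such as KRT5 and KRT14, hemidesmosome proteins and integrins, and they are known as a compartment that can hold progenitor cells. LY6D is a small protein of the LY6/uPAR family held on the cell surface by a lipid (GPI) anchor, known as a marker in early B cell development and in squamous epithelium. A sort on it reads the protein, whereas the arrays read RNA.

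Values are log2 signals, so a difference of 1 is a doubling. Differences are LY6D+ minus LY6D-, given with a moderated standard error (SE) from limma, and adjusted p-values are Benjamini-Hochberg values over all 20135 genes tested. Of these, 2 passed an adjusted p of 0.05, both higher in LY6D+ cells, which is 0.00993% of the genes tested. With the mouse pair as a block none passed (0 genes, smallest adjusted p = 0.364), while 661 genes had an unadjusted p under 0.05 in that fit, against 443 without the block (2.2% of the genes). Because the 2 mice are the only replicates, most of what follows is a description of values in 4 arrays.

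The 2 genes that passed encode small RNAs. The microRNA is printed here to identify the transcript, from RefSeq (build GRCm38.p6), with the seed, bases 2 to 8, in capitals for the mature form and the mature form in capitals within the hairpin. Mir1191 lies on the plus strand at chr7:27205536-27205655, within the span of the protein-coding gene BC024978. The mature forms of Mir15a, a microRNA of the minus strand at chr14:61632027-61632110 within the long noncoding RNA gene Dleu2, are shown for comparison, since it was the other microRNA gene among the genes named. The seeds of the 3 mature forms differ.
mmu-miR-1191a: cAGUCUUAcuauguagcccua
Mir1191 hairpin: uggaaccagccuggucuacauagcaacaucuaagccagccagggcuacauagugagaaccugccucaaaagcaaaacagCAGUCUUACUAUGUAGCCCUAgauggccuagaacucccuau
mmu-miR-15a-5p: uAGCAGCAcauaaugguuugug
mmu-miR-15a-3p: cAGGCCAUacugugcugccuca

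Mir1191 signal was 8.65 and 8.05 in LY6D+ basal cells of mice 3 and 5, against 5.09 and 5.34 in LY6D- basal cells of the same mice. The groups did not overlap, and the gene rose by 3.14 ± 0.32 (adjusted p = 0.0435, limma, and 0.364 as the adjusted p with the mouse pair as a block). In the other 8 arrays it lay between 4.80 and 5.80, at the level of LY6D- basal cells. BC024978, in whose span it lies, was 5.88 and 4.51 in LY6D+ and 4.74 and 3.98 in LY6D- basal cells, a smaller difference of 0.84 ± 0.44.

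Snora33 encodes a small nucleolar RNA of the H/ACA class, which guide pseudouridylation of ribosomal RNA, and lies within the ribosomal protein gene Rps12 on chromosome 10. Its signal was 9.56 and 8.47 in LY6D+ basal cells, against 4.74 and 5.21 in LY6D- basal cells, a rise of 4.04 ± 0.42 (adjusted p = 0.0435, limma, and 0.536 with the block). Its other probe set read 8.35 and 3.50 in LY6D+ and 2.55 and 2.0 in LY6D- cells, so that the size in mouse 5 was 3.26 by the brighter and 1.49 by the dimmer probe set. Averaged over both probe sets, the call was lost (adjusted p = 1.00, limma). Rps12, its host gene, was 11.47 and 11.61 in LY6D+ and 10.60 and 11.65 in LY6D- cells, with overlapping groups. Outside the basal gate Snora33 lay between 4.79 and 5.80.

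Mir15a was 7.11 and 5.89 in LY6D+ basal cells and 4.54 and 3.17 in LY6D- basal cells (2.65 ± 0.56, adjusted p = 1.00, limma). It stood apart by LY6D in the luminal gate too, at 5.92 and 6.41 in LY6D+ and 3.77 and 3.54 in LY6D- cells, but not in the Sca1-high gate, at 4.04 and 4.08 against 4.54 and 3.38. None of these differences of Mir15a passed the test over all genes. Its neighbour Mir16-1 read 8.19 in the LY6D+ basal array of mouse 3 and 3.23 in that of mouse 5, against 3.55 and 3.48 in LY6D- basal cells, so the pair of microRNAs did not move together in mouse 5. Dleu2 read 4.57 and 5.02 in LY6D+ and 4.25 and 4.40 in LY6D- basal cells. The median difference was 0.05 over 319 microRNA genes and -0.01 over 69 small nucleolar RNA genes. Groups did not overlap, with LY6D+ higher, in 50 and 16 of these (13.7% of all genes). They did so with LY6D+ lower in 23 and 9 (10.9% of all genes). In both mice, 2 and 3 were at least 1 log2 unit higher (0.536% of all genes), and 1 and 0 lower (0.591%). A probe set of this array does not tell a mature small RNA from its precursor or host transcript.

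**Figure D1:**
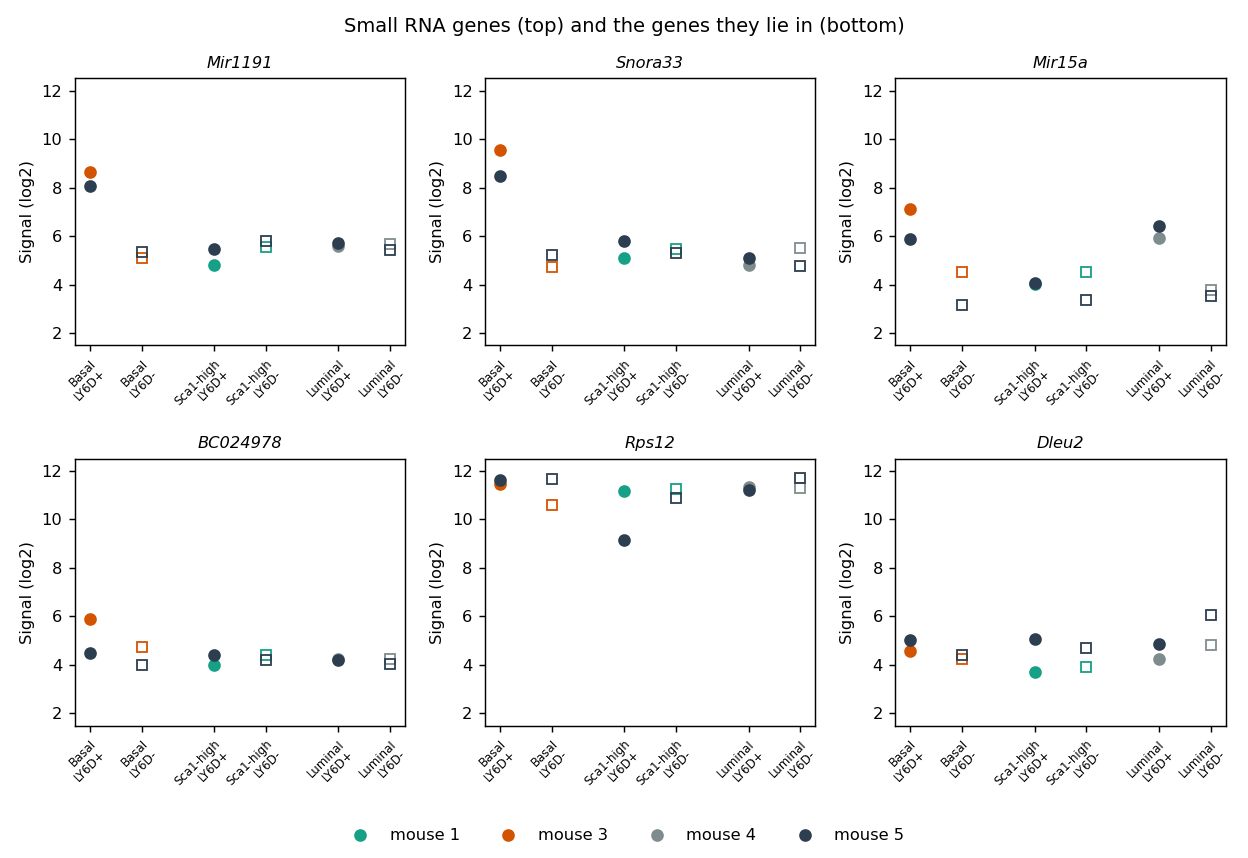
Log2 signal (y axis) of Mir1191, Snora33 and Mir15a in the top row and of the genes they lie in (BC024978, Rps12, Dleu2) in the bottom row, in each of the 12 arrays, with filled circles for LY6D+ and open squares for LY6D- samples and a colour per mouse. Mir1191 and Snora33 lie above 8 in both LY6D+ basal arrays and at or under 5.80 in the other 10. The genes in whose span they lie show no such step in both arrays. BC024978 was 5.88 in the LY6D+ basal array of mouse 3 and 3.98 to 4.74 elsewhere.

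None of the genes of the sort proteins passed the test. Ly6d itself was 5.93 and 5.96 in LY6D+ basal cells, against 4.86 and 6.03 in LY6D- basal cells, so the groups overlapped and only mouse 3 had more in LY6D+ cells (0.51 ± 0.70, adjusted p = 1.00, limma). Itga6, which encodes CD49f, was 8.22 and 9.15 in LY6D+ and 7.44 and 9.05 in LY6D- cells. Ptprc, which encodes CD45, was near the lower quartile of the table (2.98) in all 4 arrays, between 3.25 and 3.76. Pecam1, which encodes CD31, was 7.18 and 5.70 in LY6D+ and 8.62 and 8.19 in LY6D- cells, a difference of -1.97 ± 0.82 (adjusted p = 1.00, limma), although both groups were sorted as negative for CD31. Sca1 itself is encoded by Ly6a, for which the annotation lists no probe set, so it was not analysed here.

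Keratins of basal cells were bright in both groups. Krt14 was 11.65 and 11.69 in LY6D+ and 10.19 and 11.47 in LY6D- cells, and Krt17, another keratin of basal epithelia, was 12.42 and 12.51 in LY6D+ and 11.25 and 12.51 in LY6D- cells. Trp63, the transcription factor that defines basal epithelium, was low in all 4 arrays, between 4.79 and 5.07, while the luminal arrays read 3.94 to 4.81. Over the 18 basal epithelial genes tested of 20, the mean level was 7.21 and 7.71 in LY6D+ and 6.64 and 7.92 in LY6D- cells, against 5.17 to 6.27 in the 4 luminal arrays. Krt18, a keratin of luminal cells, was 11.21 and 11.60 in LY6D+ and 10.13 and 11.07 in LY6D- cells, against 10.31 to 11.14 in luminal arrays. Krt8, another, was 10.06 and 10.53 in LY6D+ and 8.88 and 10.91 in LY6D- cells, against 9.63 to 10.57 in luminal arrays. Krt14 and Krt17 were also bright in LY6D+ luminal arrays, at 9.87 and 10.31 and at 10.48 and 11.18. In LY6D- luminal arrays they were 4.98 and 6.99, and 6.56 and 7.86.

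Of the gene lists examined, that of blood vessel endothelium, the cells that line vessels, had the lowest median. Emcn, which encodes the endothelial sialomucin endomucin, was 3.62 and 5.06 in LY6D+ basal cells, against 10.34 and 10.27 in LY6D- basal cells. That is a difference of -5.97 ± 0.93, which did not pass over all genes (adjusted p = 0.435, limma). Of the 26 genes in the endothelial list, all were tested, 23 were lower in LY6D+ cells in both mice and none was higher in both, against 22.8% of all genes lower in both. In 19 of the 26 the groups did not overlap (10.9% of all genes), 14 had an unadjusted p under 0.05 (1.08% of all genes), and 0 passed the adjusted threshold. The list median was -1.39, against 0.02 over all genes tested, at -1.16 in mouse 3 and -1.54 in mouse 5. In bulk samples such as these, fewer cells of a type and less RNA per cell cannot be told apart.

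Genes of endothelial junctions and receptors were among the other members that differed. Cdh5, which encodes the endothelial junction protein VE-cadherin, was 4.26 and 5.88 in LY6D+ and 9.78 and 9.33 in LY6D- basal cells (-4.48 ± 1.30). Adgrl4, an adhesion receptor of vessels, was 3.53 and 3.50 in LY6D+ and 8.22 and 6.34 in LY6D- cells (-3.77 ± 1.05). Kdr, which encodes the VEGF receptor VEGFR2, was 3.52 and 3.90 in LY6D+ and 7.70 and 5.54 in LY6D- cells (-2.92 ± 1.05). In these 3 genes both LY6D- arrays lay above both LY6D+ arrays, and none passed over all genes (adjusted p = 1.00 for each, limma).

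The TGF-beta co-receptor Eng, the stem and endothelial surface protein Cd34, the fenestral diaphragm protein Plvap and the VEGF receptor Flt1 were lower in LY6D+ cells by 2.65 to 3.13 on the log2 scale, at -2.94, -3.13, -2.86 and -2.65. Erg, a transcription factor of endothelium, was 4.14 and 4.21 in LY6D+ and 6.35 and 7.04 in LY6D- cells. The exceptions within the list were Ramp2, Sox17 and Egfl7, whose 2 mouse pairs went opposite ways, and Flt4, a receptor of lymphatic vessels, at 4.56 and 4.34 in LY6D+ and 4.58 and 4.49 in LY6D- cells. Mmrn2 and Ptprb differed almost only in mouse 5. Mmrn2 was 4.42 and 4.49 in LY6D+ and 4.56 and 9.26 in LY6D- cells, and Ptprb 3.99 and 3.84 against 4.08 and 5.49.

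Some genes outside the list, named for their p, are known from vessels. Sele encodes E-selectin, an adhesion molecule of activated endothelium that captures leukocytes: it was 3.85 and 3.55 in LY6D+ and 7.89 and 7.97 in LY6D- cells (-4.23 ± 0.80, adjusted p = 0.747, limma). Bcl6b, a repressor expressed in endothelium, was 3.69 and 3.26 in LY6D+ and 5.07 and 5.22 in LY6D- cells. The matrix protein gene Sparcl1 was 4.63 and 4.64 in LY6D+ and 10.17 and 9.13 in LY6D- cells (-5.01 ± 0.92). Unlike the endothelial list mean, Sparcl1 was also high in luminal arrays, at 7.17 and 9.78 in LY6D+ and 7.25 and 9.52 in LY6D- cells. Chosen after their values were seen, Selp, which encodes P-selectin, was 4.72 and 5.91 in LY6D+ and 8.92 and 10.06 in LY6D- cells, Calcrl, a receptor for adrenomedullin, 4.54 and 4.73 against 8.54 and 8.11, and Vcam1, another leukocyte adhesion molecule, 4.32 and 6.36 against 8.32 and 8.45. Whether RNA of endothelial cells takes part in these differences, or in those of other genes below, was not tested.

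**Figure D2:**
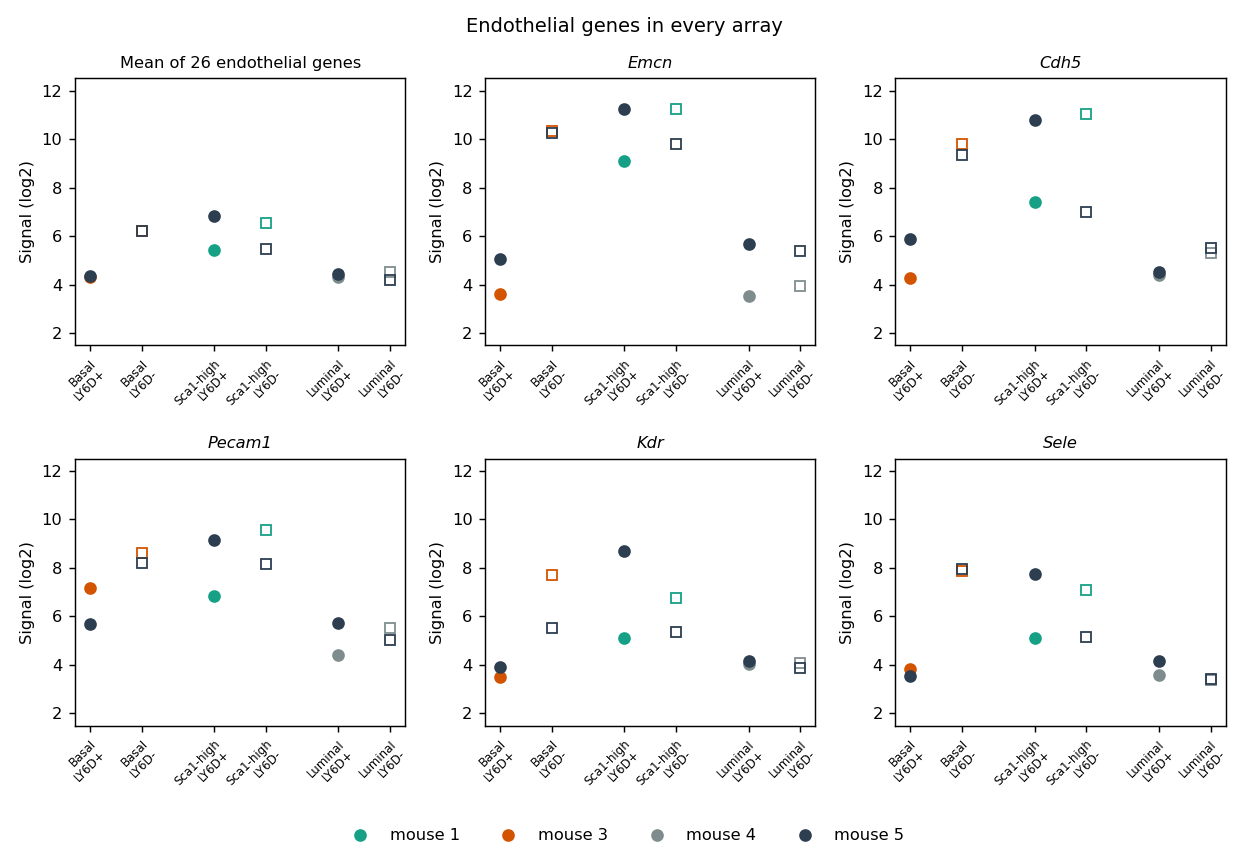
Log2 signal (y axis) of the mean over the 26 endothelial genes and of Emcn, Cdh5, Pecam1, Kdr and Sele in each of the 12 arrays, filled circles for LY6D+ and open squares for LY6D-, a colour per mouse. The list mean is 4.33 and 4.37 in LY6D+ basal arrays and 6.20 in each LY6D- basal array, while both luminal groups lie between 4.20 and 4.53 and both Sca1-high groups between 5.41 and 6.85.

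Set beside the other gates, LY6D+ basal cells had endothelial signal at the luminal level and LY6D- basal cells had it at the Sca1-high level. The list mean was 4.33 and 4.37 in LY6D+ basal arrays and 6.20 and 6.20 in LY6D- basal arrays. In the Sca1-high gate it was 5.41 and 6.85 in LY6D+ and 6.53 and 5.48 in LY6D- arrays, and in the luminal gate 4.30 and 4.44 in LY6D+ and 4.53 and 4.20 in LY6D- arrays, with overlapping groups in both. Emcn read 9.08 and 11.22 in LY6D+ and 11.22 and 9.79 in LY6D- Sca1-high arrays. Its basal LY6D difference exceeded the Sca1-high one by -5.61 ± 1.32 and the luminal one by -5.92 ± 1.32, with unadjusted p of 0.00196 and 0.00138 and adjusted p = 1.00 and 0.999 (limma), so neither passed.

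Promoters of vascular genes that were low in LY6D+ cells are shown as a description of sequence only. The promoters of Emcn (chr3:137340828-137341127, plus strand) and Sele (chr1:164047984-164048283, plus strand) run from 250 bases before to 50 bases after the gene start, from RefSeq on GRCm38.p6. Capitals mark CAGGAA, which contains GGAA, the core that ETS factors such as ERG and FLI1 are known to bind. CAGGAA was searched on both strands, so that TTCCTG is a match on the other strand. Stretches with GGAA in another context are neither marked nor counted.
Emcn promoter: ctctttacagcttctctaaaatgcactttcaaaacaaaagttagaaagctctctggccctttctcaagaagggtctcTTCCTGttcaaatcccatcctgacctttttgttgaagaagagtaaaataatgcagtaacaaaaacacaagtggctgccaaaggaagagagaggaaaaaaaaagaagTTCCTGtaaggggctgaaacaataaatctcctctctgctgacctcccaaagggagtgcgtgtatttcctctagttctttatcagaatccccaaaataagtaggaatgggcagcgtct
Sele promoter: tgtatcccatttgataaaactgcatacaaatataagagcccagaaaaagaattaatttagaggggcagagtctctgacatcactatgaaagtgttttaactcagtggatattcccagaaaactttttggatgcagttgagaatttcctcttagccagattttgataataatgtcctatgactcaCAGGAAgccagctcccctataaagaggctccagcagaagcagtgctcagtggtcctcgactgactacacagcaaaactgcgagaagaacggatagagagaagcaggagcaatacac

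The Emcn promoter held 2 matches and the Sele promoter 1. Of the endothelial list, 14 genes had a promoter in the table and 9 of these held the motif, as did 5 of the 6 promoters found for the 12 genes with the smallest p among those lower in LY6D+ cells and 1 of the 5 found for the 12 among those higher. Over all 27025 genes in the table the share was 33.4%. The 12 genes each way were chosen by their p in these same arrays, and few of their promoters were found. No difference between the shares was tested, nor was a role of ETS factors. A match describes letters and is no binding site.

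Among other genes lower in LY6D+ cells, Ifi204, an interferon-inducible gene of the p200 family, was 2.28 and 2.68 in LY6D+ basal cells, against 7.94 and 7.17 in LY6D- basal cells (-5.08 ± 0.78, adjusted p = 0.435, limma). Both LY6D+ values were short of 2.98, the lower quartile of all values, and the other 10 arrays of the study lay between 6.41 and 9.20. Vim, the intermediate filament protein of mesenchymal and endothelial cells, was 6.75 and 6.85 in LY6D+ and 9.48 and 9.09 in LY6D- cells, and its other probe set differed by -2.45 as well. Unlike the endothelial list mean, Vim was also high in the luminal arrays, at 9.04 to 10.07. Insr, the insulin receptor, was 5.03 and 4.89 in LY6D+ and 6.80 and 6.74 in LY6D- cells. Ctla2a, related to the propeptide of cysteine proteases, was 2.04 and 2.41 in LY6D+ and 6.0 and 5.96 in LY6D- cells. Adamts4, a protease of matrix proteoglycans, differed by -2.40 ± 0.41, Cpne8 by -2.34 ± 0.44, Mustn1 by -3.64 ± 0.70 and the hyaluronidase-related Cemip2 by -1.61 ± 0.31, each with groups that did not overlap and an adjusted p of 0.747 (limma).

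Higher in LY6D+ cells with the smallest p after the small RNAs was Clca3a2, of a family named for chloride channel accessory proteins, at 5.34 and 6.38 in LY6D+ and 2.85 and 3.02 in LY6D- cells (2.92 ± 0.44, adjusted p = 0.435, limma). The others had adjusted p = 1.00 (limma). Mrpl38, a mitochondrial ribosomal protein, was 5.59 and 5.97 in LY6D+ and 3.55 and 4.03 in LY6D- cells. Sting1, the adaptor of cytosolic DNA sensing, was 5.24 and 5.39 in LY6D+ and 4.38 and 4.42 in LY6D- cells, and the vesicle-traffic GTPase gene Rab34 5.84 and 5.03 against 3.78 and 4.19. Fbxw5, a substrate adaptor of ubiquitin ligases, differed by 1.69 ± 0.35, though by only 0.56 with its other probe set. Tmem60, 5830417I10Rik, Pgghg and Catsperd differed by 0.90 to 2.02. In all of these genes both LY6D+ arrays lay above both LY6D- arrays, as the rule for naming them requires.

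**Figure D3:**
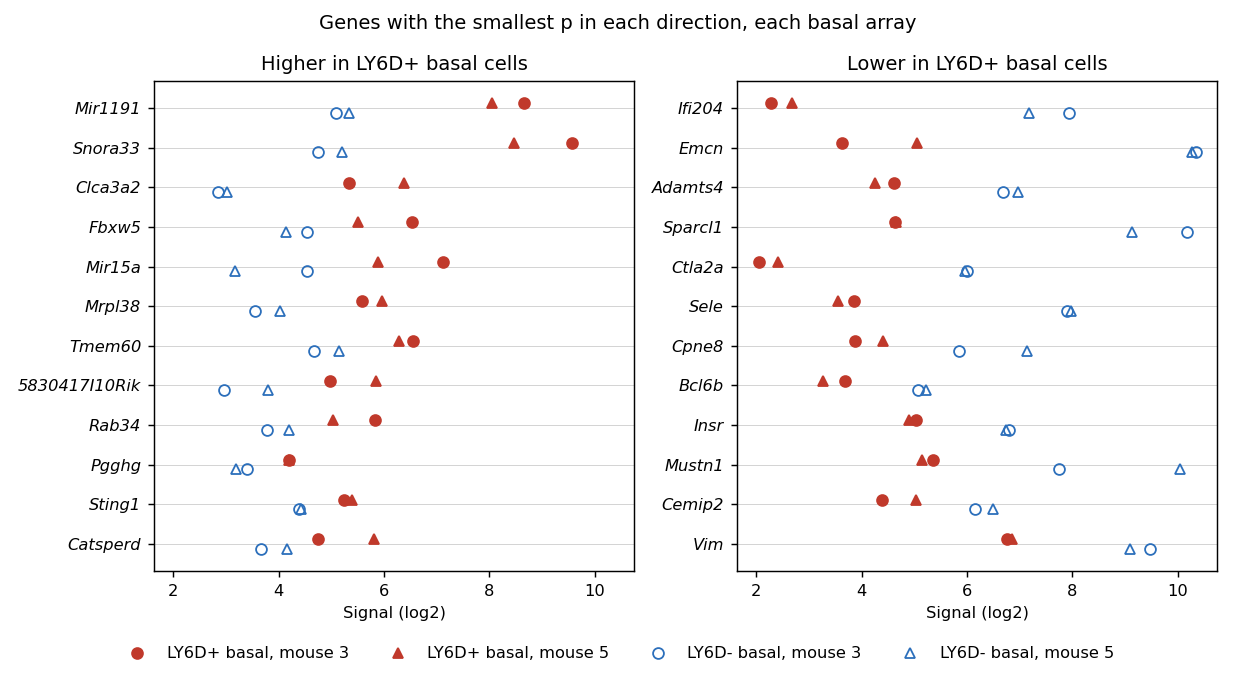
Log2 signal (x axis) in each basal array for the 12 genes with the smallest p that were higher (left) and lower (right) in LY6D+ cells, filled red for LY6D+ and open blue for LY6D-, circles for mouse 3 and triangles for mouse 5. The largest differences are on the right, where Emcn, Ifi204 and Sparcl1 differ by more than 5. Sizes overlap between the panels, with Cemip2 at -1.61 on the right and Snora33 at 4.04 on the left.

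Across all genes the 2 mice agreed little. The LY6D differences of mouse 3 and mouse 5 correlated at a Pearson r of 0.09 over 20135 genes, which share arrays and are not independent. Genes at least 1 log2 unit higher in LY6D+ cells in both mice numbered 108 (0.536%), genes at least 1 lower in both 119 (0.591%), and genes at least 1 apart in opposite ways 117 (0.581%). Of the 26 endothelial genes, 12 were among the 119. No other list contributed more than 2 genes to either set.

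**Figure D4:**
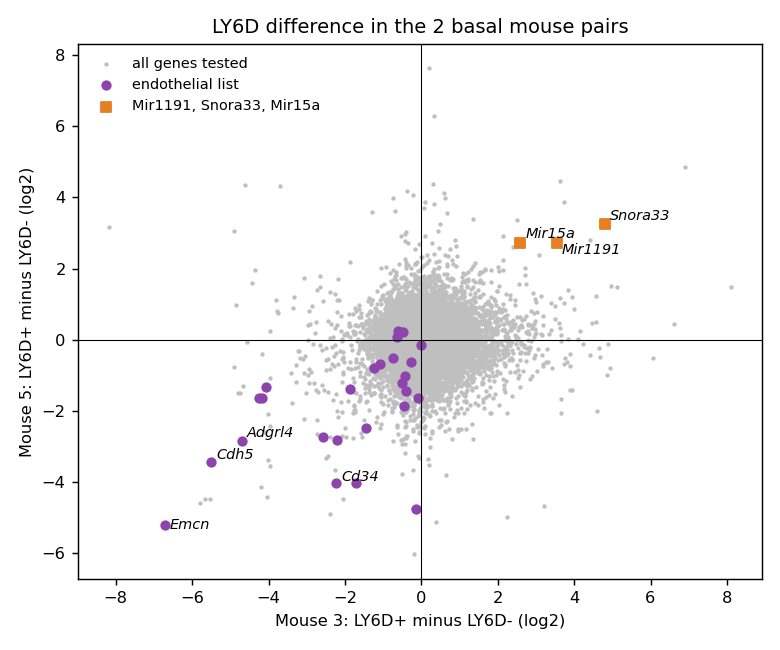
LY6D+ minus LY6D- difference (log2) in mouse 3 (x axis) against mouse 5 (y axis) for each gene tested, with the endothelial list in purple and Mir1191, Snora33 and Mir15a as orange squares. The cloud is round (r = 0.09), while endothelial genes extend to the lower left and the 3 small RNA genes lie at the upper right.

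Smooth muscle cells and pericytes surround vessels, and the median of their 15 genes was 0.01. Rgs5, a marker of pericytes, was 3.86 and 5.79 in LY6D+ and 8.66 and 7.29 in LY6D- cells (-3.15 ± 0.90), although its other probe set read 4.49 and 6.80 against 5.50 and 4.83. In the luminal arrays Rgs5 read 7.70 to 10.41. The remaining 14 genes of the list included none with an unadjusted p under 0.05. Several pericyte genes were dim in both groups, such as Pdgfrb, a growth factor receptor, at 4.72 and 4.57 in LY6D+ and 4.52 and 4.85 in LY6D- cells. Acta2, the smooth muscle actin, was 5.61 and 5.59 in LY6D+ and 5.54 and 5.22 in LY6D- cells. Fibroblast genes had a median of -0.22, with Col3a1, a fibrillar collagen, at 4.25 and 4.28 in LY6D+ and 4.65 and 4.54 in LY6D- cells.

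The myeloid list had a median of 0.24, with 10 of 19 members higher in LY6D+ cells in both mice (27.8% of all genes). In 7 of the 19 the groups did not overlap and LY6D+ was higher (13.7% of all genes), and 2 were higher at an unadjusted p under 0.05 (1.12% of all genes), Laptm5 and Ms4a7. Ms4a7, a membrane protein of macrophages, was 4.18 and 5.73 in LY6D+ and 3.55 and 3.36 in LY6D- cells. Laptm5, a lysosomal protein of blood cells, was 5.03 and 5.24 in LY6D+ and 3.51 and 3.62 in LY6D- cells, and the signalling adaptor Tyrobp 6.28 and 7.52 against 5.60 and 3.95, while Fcer1g, an Fc receptor chain, was lower, at 5.40 and 5.53 in LY6D+ and 6.92 and 6.28 in LY6D- cells. The lymphoid mean level was 4.00 and 3.97 in LY6D+ and 4.13 and 3.76 in LY6D- cells. The neuroendocrine median was 0.02 and that of the 5 Schwann cell genes tested 0.09, and of 8 erythroid genes only 2 were tested.

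The basal, luminal and cell junction lists had medians above 0 in LY6D+ cells, larger in mouse 3 than in mouse 5. The basal epithelial median was 0.28, at 0.40 in mouse 3 and 0.04 in mouse 5, with no member under an unadjusted p of 0.05. Col17a1, a hemidesmosome collagen, was 7.56 and 8.15 in LY6D+ and 6.61 and 8.0 in LY6D- cells, and the Notch ligand gene Jag2 was lower, at 4.54 and 4.53 against 4.90 and 5.76. Luminal epithelial genes had a median of 0.24, and Elf3, an epithelial ETS factor, was 5.27 and 6.66 in LY6D+ and 3.91 and 5.19 in LY6D- cells. For cell junction genes the median was 0.41, at 0.77 in mouse 3 and -0.01 in mouse 5, with Perp, a desmosome protein, at 8.02 and 8.71 in LY6D+ and 6.88 and 7.65 in LY6D- cells.

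Ribosomal protein genes (median 0.41, 0.70 in mouse 3 and 0.06 in mouse 5) and respiratory chain genes (0.43, 0.44 and 0.17) were also higher mainly in mouse 3. The LY6D- basal array of mouse 3 was dimmer for abundant transcripts: its highest signal was 12.9, against 13.2 to 13.8 in the other 11 arrays, and Krt14, Krt17 and Krt18 were lowest there among the basal arrays. Without that array the medians were -0.52 for basal epithelial, -0.01 for cell junction, -0.04 for ribosomal and -0.02 for respiratory chain genes, so their positive sign rests on it. The endothelial median without it was -1.66.

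Pbsn, which encodes the prostate secretory protein probasin, was 9.09 and 11.48 in LY6D+ and 6.93 and 10.84 in LY6D- cells. Mouse 5 lay above mouse 3 in both groups. The list of 17 prostate secretory genes, all tested, had a median of 0.11, at 0.01 in mouse 3 and 0.44 in mouse 5. Of these, 7 were higher and 3 lower in both mice (27.8% and 22.8% of all genes). Msmb, in the same list, went opposite ways, at 4.49 and 9.23 in LY6D+ and 8.30 and 8.11 in LY6D- cells. Svs6, a seminal vesicle protein, was 7.50 and 11.02 in LY6D+ and 3.88 and 6.57 in LY6D- cells (4.04 ± 1.37, adjusted p = 1.00, limma). The 6 seminal vesicle genes tested of 8 had a median of 1.20, the highest of the lists, at 1.07 in each mouse. That median ranged from 0.28 to 2.49 when single arrays were left out. In luminal arrays the mean level of this list was 11.38 to 11.87, against 8.05 and 10.90 in LY6D+ and 6.81 and 8.90 in LY6D- basal arrays, and whether secretory RNA from other cells takes part in the difference was not tested.

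Squamous differentiation genes had a median of 0.10. Krt6a, a keratin of activated epithelium, was 7.62 and 6.35 in LY6D+ and 5.38 and 5.84 in LY6D- cells, and it was the 1 member of 25 higher at an unadjusted p under 0.05 (1.12% of all genes; adjusted p = 1.00, limma). Ivl, which encodes the cornified envelope protein involucrin, was 7.20 and 8.94 in LY6D+ and 8.11 and 9.21 in LY6D- cells. In the LY6/uPAR family, to which Ly6d belongs, the median of 27 members tested was 0.07. Of these, 1 was lower at an unadjusted p under 0.05 (1.08% of all genes). That member was Gpihbp1, the lipoprotein lipase anchor of capillary endothelium, which is also in the endothelial list, at 4.69 and 4.55 in LY6D+ and 8.77 and 5.88 in LY6D- cells. Ly6e was 10.55 and 10.08 in LY6D+ and 10.03 and 10.93 in LY6D- cells, and Psca, a marker of proximal luminal progenitors, was 4.24 and 6.70 against 3.64 and 5.52.

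Stress and signalling lists showed a few single genes. Of 10 heat shock genes, 3 were lower in LY6D+ cells at an unadjusted p under 0.05 (1.08% of all genes): the small chaperone Cryab, at 6.71 and 5.42 in LY6D+ and 8.96 and 9.08 in LY6D- cells, and the HSP70 genes Hspa1a (7.16 and 10.14 against 11.13 and 11.22) and Hspa1b (10.34 and 10.49 against 11.24 and 11.61). The other probe set of Cryab differed by -1.59, at -0.80 in mouse 3 and -2.39 in mouse 5. The list median was 0.04, and the list mean was -0.50, of the opposite sign. Btg2, an antiproliferative early response gene, was 10.01 and 10.21 in LY6D+ and 8.48 and 8.55 in LY6D- cells. Jund, an AP-1 transcription factor in the same list, was 7.85 and 8.43 in LY6D+ and 9.47 and 9.33 in LY6D- cells, but its other probe set differed by 0.35.

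Interferon response genes had a median of -0.40, with 9 of 17 lower in LY6D+ cells in both mice (22.8% of all genes). Gbp3, a guanylate-binding protein, was 3.65 and 3.57 in LY6D+ and 5.36 and 4.21 in LY6D- cells. Psmb9, a subunit of the immunoproteasome in the antigen presentation list, was 4.61 and 4.11 in LY6D+ and 6.03 and 4.94 in LY6D- cells. The median of that list was -0.07. Of its 13 genes tested, 6 were lower and 3 higher in both mice (22.8% and 27.8% of all genes). H2-Ab1 was among those higher, at 7.83 and 8.81 in LY6D+ and 7.81 and 7.80 in LY6D- cells. The cholesterol synthesis enzyme gene Hmgcs1 was 4.78 and 4.62 in LY6D+ and 5.51 and 5.88 in LY6D- cells, in a list whose median was 0.23. Dll4, a Notch ligand of vessels, was 4.05 and 4.03 in LY6D+ and 4.76 and 4.56 in LY6D- cells.

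Among WNT genes, Lgr5, an R-spondin receptor and stem cell marker, was 4.59 and 3.78 in LY6D+ and 3.35 and 3.21 in LY6D- cells, but its other probe set differed by only 0.09. Of the 17 WNT genes tested, 5 were higher and 3 lower in both mice (27.8% and 22.8% of all genes), with a median of 0.01. Znrf3 was among those lower, at 4.47 and 4.30 in LY6D+ and 4.57 and 5.60 in LY6D- cells. Bmi1, a Polycomb protein known for stem cell maintenance, was 4.84 and 4.55 in LY6D+ and 4.09 and 4.06 in LY6D- cells. Klf5, an epithelial transcription factor, was 11.20 and 11.15 against 10.22 and 10.41. Both are in the list of prostate lineage transcription factors, whose median over 18 genes tested was 0.04. In that list 4 were higher and 2 lower in both mice (27.8% and 22.8% of all genes). Sox2 was lower, at 2.56 and 3.77 in LY6D+ and 2.95 and 4.59 in LY6D- cells. Manf, a secreted protein of the endoplasmic reticulum stress response, was 4.88 and 5.08 against 3.85 and 4.04. Cell cycle genes had a median of 0.06 with no member under an unadjusted p of 0.05, and Cdk1, the mitotic kinase, was 3.35 and 3.37 in LY6D+ and 2.96 and 3.13 in LY6D- cells.

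**Figure D5:**
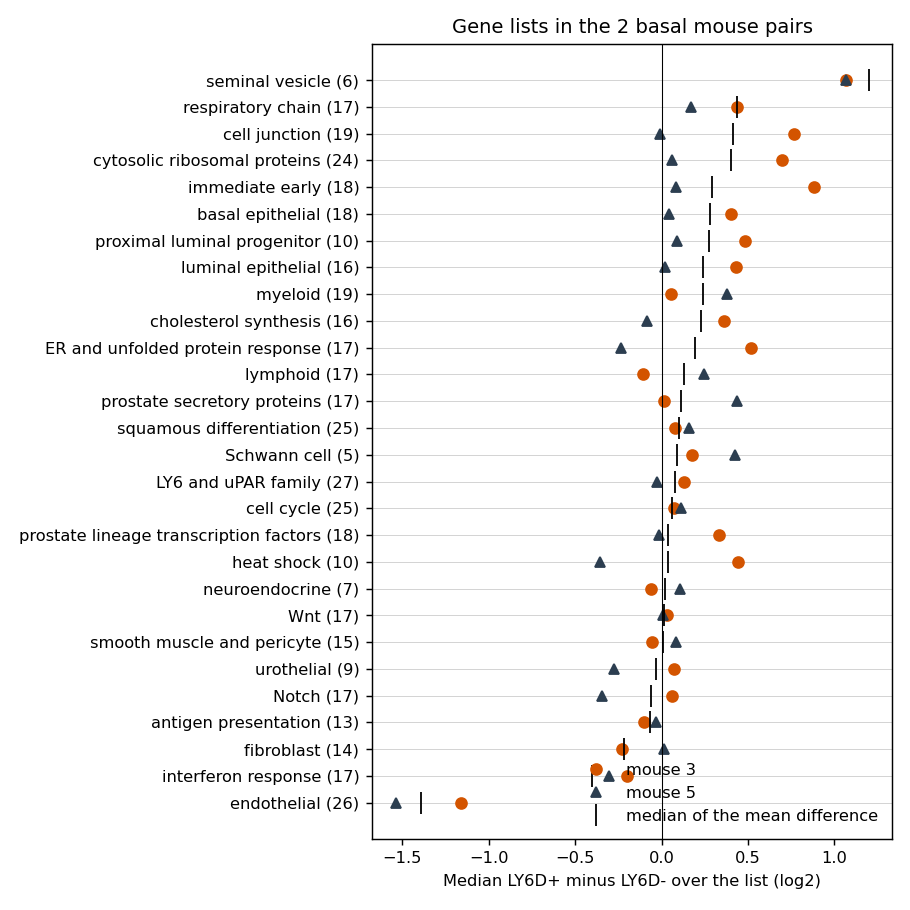
Median LY6D+ minus LY6D- difference (log2, x axis) of each gene list with at least 5 members tested, the number tested in brackets, as circles for mouse 3, triangles for mouse 5 and bars for the median of the mean difference. Endothelial genes are lowest at -1.39, seminal vesicle genes highest at 1.20, and the remaining lists lie between -0.40 and 0.43.

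Whether the LY6D difference of basal cells differed from that of the other gates was tested gene by gene. No gene passed an adjusted p of 0.05 against the luminal gate (0 genes, with 494 at an unadjusted p under 0.05) or against the Sca1-high gate (0 genes, 475 unadjusted, limma). Snora33 and Mir1191 were among those with the smallest p: against the luminal gate their LY6D differences were larger by 4.24 ± 0.60 and 3.05 ± 0.45 (adjusted p = 0.326 for both, limma), and against the Sca1-high gate by 3.98 ± 0.60 and 3.67 ± 0.45 (adjusted p = 0.830 and 0.292, limma). Xcl1, a chemokine of lymphocytes, was 4.38 and 4.39 in LY6D+ and 10.69 and 8.75 in LY6D- luminal cells, against 4.55 and 4.29 in LY6D+ and 4.66 and 3.79 in LY6D- basal cells. The small GTPase gene Mras was 3.10 and 3.00 in LY6D+ and 4.69 and 4.67 in LY6D- basal cells. Atp6v1g3, a proton pump subunit, was 2.88 and 3.65 in LY6D+ and 6.26 and 5.45 in LY6D- basal cells. Both went the other way in the luminal gate. There Mras was 4.26 and 5.22 in LY6D+ and 3.10 and 3.82 in LY6D- cells, and Atp6v1g3 6.16 and 6.55 against 4.61 and 5.69.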

How the data were processed

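Total RNA of sorted cells was amplified and labelled by NuGEN's Ovation V2 kit, per the labels' protocols, and each sample has its own array. Each probe set has a deposited log2 signal, made by the authors with RMA in oligo, per the submitters' processing notes. Values lay between 0.695 and 14.3 and were used without further normalization. No detection call or scanner file was used here.

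Of 41345 probe sets, 23521 had 1 gene symbol, 1814 had several and 16010 had none in the annotation. The brightest probe set was kept for each of 22180 genes, and 20135 with at least 2 of 12 arrays above the lower quartile (2.98) were tested. A mean per group over all 12 arrays was fitted with limma 3.58.1 in R 4.3.3 (6 residual and 3.28 prior degrees of freedom), checked on simulated data. P-values treat arrays of a mouse as independent.

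LY6D+ and LY6D- basal arrays of a number come from the same mouse. Their deviations correlated at 0.407, and the mouse pair was used as a block in an alternative. The basal LY6D arrays of mouse 5 and the luminal LY6D- array of mouse 5 lay apart on the first principal component (25.2% of the variance).

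The comparison, the 29 gene lists and the rule for named genes were chosen with earlier results of these data known. Named were genes of the sort proteins, the 12 genes with the smallest p each way whose groups did not overlap and whose pairs agreed, up to 4 members per list by size where pairs agreed, and the 3 with the smallest p each way between gates. Other genes were chosen after their values were seen. Of 500 list genes, 47 were not tested, 27 without a probe set in the annotation, 17 with probe sets of several symbols only (such as Krt5) and 3 below the filter.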

Additional observations from a re-analysis of the deposited data

How the results depend on the processing

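The count of 2 genes past the threshold was not stable. It was 0 with the mouse pair as a fixed block (replicate block), with only the 4 basal arrays with or without mouse as a replicate block, with quantile normalization, with the mean of a gene's probe sets, with an intensity trend in the prior, and, in settings chosen after the data were seen, without both basal arrays of mouse 5, without both of mouse 3 and without the 3 arrays of mouse 5 that lie apart. It was 3 without the Sca1-high LY6D+ array of mouse 5, which added Rps12-ps24. Leaving out single basal arrays gave 0 to 1, the 1 being 2210409E12Rik without the LY6D- array of mouse 3, the array whose omission also gave 1 gene for each difference between gates (0 to 1 over single arrays left out). With the fixed block the estimates are the same and 3 residual degrees of freedom remain in place of 6. For the other settings the cause was not tested. Mir1191 and Snora33 kept their sign in 18 of 18 alternatives, at 2.71 to 3.56 and 3.26 to 4.82, and Emcn at -6.72 to -5.22. The endothelial median kept its sign in 18 of 18, at -1.66 to -1.16. Ly6d lay between -0.08 and 1.09, with 2 of 18 below 0, without ever passing. The replicate block changed no other call. Signals near the lower quartile, such as Ifi204 and Ctla2a in LY6D+ cells, leave the size of a difference uncertain.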

Other observations

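Further genes at least 1 log2 unit apart in both mice were looked at after their values were seen, and they did not pass over all 20135 genes (limma), although Rps12-ps24 passed when the Sca1-high LY6D+ array of mouse 5 was left out. Mndal, a neighbour of Ifi204 in the p200 family, read 2.43 and 1.74 in LY6D+ and 8.21 and 6.34 in LY6D- basal cells. Iigp1, an interferon-inducible GTPase, read 5.30 and 5.19 in LY6D+ and 9.26 and 7.61 in LY6D- cells. The vessel-associated genes Mgp and Cd36 read 8.19 and 7.59 against 10.69 and 10.93, and 3.36 and 4.41 against 8.11 and 5.91. Fli1, an ETS factor of endothelium, read 3.99 and 4.30 in LY6D+ and 6.31 and 5.99 in LY6D- cells.

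On the higher side, Rps12-ps24, a pseudogene of the Snora33 host, read 9.45 and 8.0 in LY6D+ and 2.56 and 3.13 in LY6D- basal cells. It also read 11.81 in 1 of the 8 other arrays, the LY6D+ Sca1-high array of mouse 1, and 2.47 to 4.32 in the remaining 7. The small nucleolar RNA gene Snord13 read 9.18 and 8.25 in LY6D+ and 5.45 and 4.37 in LY6D- cells. Maf, a transcription factor, read 7.72 and 9.07 in LY6D+ and 3.31 and 6.28 in LY6D- cells.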
